A study of Homo sapiens with 24 samples.

Results

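The genes described here are 32 targets of p53, a list of transcripts that the tumor suppressor p53 is known to switch on, and all 32 are among the 23354 genes in the table of read counts. p53 is a transcription factor that is held at a low level by the ubiquitin ligase MDM2 and is stabilized when DNA, ribosomes or nucleotide pools are disturbed. Its targets stop the cell cycle, repair DNA, lower oxidative stress or start cell death, and some of them, with MDM2 as the best known, feed back to shut p53 down. The sample labels give the genotype of every library as WT.

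The RNA-seq libraries came from a pair of established lines of acute myeloid leukemia, MV4-11 and KG-1a, both grown in Iscove's medium with fetal bovine serum. They received no drug, 8CA (8-chloro-adenosine) or 8AA (8-amino-adenosine), each drug at 1 μM, and were taken at 8 h or 24 h. Both drugs are analogs of adenosine, which have a chlorine (8CA) or an amino group (8AA) added to the adenine. Each of the 12 groups had 2 libraries, A and B, 24 in all, and the hours of the untreated libraries come from the sample titles alone. Nothing in the sources says that A and B came from separate cultures, so that a p-value here measures only the spread between these libraries.

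The libraries held between 18633963 and 24520078 counted reads. The 2 libraries of a group differed beyond counting noise in every group. The chi-square per degree of freedom was 12.25 between the KG-1a libraries of 24 h 8AA and 1.43 to 5.20 in the other groups. For that group, the counts of genes called and the log2 fold changes against untreated cells below are given with and without each of its libraries, while genes named there only by their role are given with both. Among 8 markers of myeloid cells and blasts, MV4-11 had high levels of LYZ, FLT3, SPI1 and CD33 and at most 0.175 CPM (counts scaled to library size) of the stem cell marker CD34. PTPRC stood there at 80.9 to 152 CPM, MPO at only 8.01 to 13.0 CPM and KIT at 2.55 to 6.58 CPM. KG-1a had 325 to 629 CPM of CD34 and 688 to 788 CPM of PTPRC. However, it had at most 1.33 CPM of LYZ, 1.32 CPM of FLT3, 1.02 CPM of CD33 and 2.16 CPM of MPO. Several defining myeloid markers were thus near 0, while SPI1 stood at 5.86 to 7.81 CPM and KIT at 3.39 to 7.21 CPM. Of 7 markers of other cell types, MS4A1 and EPCAM were at 0 in all 24 libraries, whereas the T cell gene CD3E was at 0 in MV4-11 and at 22.2 to 78.3 CPM in KG-1a.

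Levels are given as CPM after TMM scaling (trimmed mean of M-values, which sets the libraries to a common scale) over all 24 libraries. Changes are log2 fold changes with their standard errors from edgeR's quasi-likelihood test, fitted to the 12 libraries of a cell line. Calls were made where the p-value, adjusted by Benjamini-Hochberg for every gene in the fit, was below 0.05. Because the RNA came from bulk cultures, fewer cells of a kind and less RNA per cell cannot be told apart.

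Of the 32 genes, 31 passed the filter on low counts in MV4-11 and 28 in KG-1a. GDF15, a secreted stress cytokine, was tested in neither line, and no library of MV4-11 held more than 4 of its reads. The death receptor EDA2R was at 0 in all 12 KG-1a libraries. SPATA18, which takes part in the repair and removal of damaged mitochondria, and PHLDA3, an inhibitor of the kinase AKT, reached at most 0.0473 and 0.124 CPM in KG-1a and were not tested there. EDA2R, SPATA18 and PHLDA3 passed the filter through MV4-11 alone, so that no count over the tested genes speaks for all 32.

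Promoter windows of RefSeq (GRCh38.p14, 250 bases before to 50 after each start) could be matched by symbol for 25 of the 32 genes and were searched for the p53 response element. The search took 2 runs of 10 bases with intact 4-base cores, a spacer of at most 1 base and at most 3 mismatches, and the element reads alike on both strands. A match was found for 5 of the 25 genes, which are DDB2, FAS, AEN, SESN1 and GDF15, against 278 of all 27305 symbols (1.02%). The 4 whose RNA could be tested in both lines are shown here 5′ to 3′ on the strand of the gene, because their transcripts moved in different ways below, and the capitals mark the matched stretch with its spacer and mismatches.
DDB2, chr11:47214975-47215004, plus strand, 0 mismatches: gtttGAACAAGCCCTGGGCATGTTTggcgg
FAS, chr10:88991304-88991333, plus strand, 2 mismatches: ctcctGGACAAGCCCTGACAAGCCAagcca
AEN, chr15:88621301-88621330, plus strand, 2 mismatches: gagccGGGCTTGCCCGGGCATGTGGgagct
SESN1, chr6:109009013-109009042, minus strand, 3 mismatches: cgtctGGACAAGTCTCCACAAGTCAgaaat
A match describes the letters in the window and not binding. Sequence outside the windows was not searched, so a gene without a match may hold an element elsewhere. The windows of TP53INP1, TNFRSF10B, TNFRSF10A, PHLDA3, GADD45A, ASCC3 and FBXO22 were not analysed here.

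Untreated MV4-11 and KG-1a cells differed in most of these genes before any drug was added. In the fit of all 24 libraries, 31 genes were tested, and 3 of them (EDA2R, PHLDA3 and SPATA18) entered through MV4-11 alone. Of the 28 that were tested in both lines, all 28 were called between the lines at 8 h, 20 higher and 8 lower in MV4-11, where 82.2% of all 14055 genes tested were called (40.1% higher and 42.1% lower). Unlike the 28, these 14055 include genes that passed the filter through 1 line alone. At 24 h 27 of the 28 were called, 20 higher and 7 lower, where 82% of all genes were called (41% higher and 41% lower). The median difference of the 28 at 24 h was 0.70 on the log2 scale against 0.00 over all genes. CDKN1A, which encodes the cyclin-dependent kinase inhibitor p21, stood at 79.1 and 86.7 CPM in the 24 h untreated libraries of MV4-11 and at 5.76 and 4.80 CPM in those of KG-1a. MDM2 stood at 276 and 287 CPM in MV4-11 and at 143 and 132 CPM in KG-1a. The libraries of the lines did not overlap for either gene.

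The 3 genes with the largest difference were EDA2R, PHLDA3 and SPATA18, for which KG-1a was at or near 0. EDA2R was at least 386.1-fold higher in MV4-11 at 8 h and at least 364-fold higher at 24 h, counted against a floor of 3 reads over the KG-1a group. SPATA18 was at least 30.98-fold and at least 42.51-fold higher at these times. PHLDA3 was at least 301.7-fold higher at 24 h, and at 8 h, where KG-1a held 2 reads, the ratio was 518.1 with an exact counting interval of 143 to 4280. These bounds cover counting error only.

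Compared per kb of exon, the untreated level at 24 h ran in MV4-11 from 0.593 CPM per kb for FAS, the receptor of FAS ligand and the lowest of the tested genes, to 55.6 for CCNG1 (cyclin G1), with TRIAP1, an inhibitor of apoptosis, at 49.7. In KG-1a the highest was CD82, a tetraspanin that restrains metastasis, at 97.4 CPM per kb. FAS, CD82, CYFIP2, ZMAT3, TP53I3, TNFRSF10A and SESN1 were the 7 genes called higher in KG-1a at 24 h. For TNFRSF10B, the TRAIL receptor DR5, the level was 39.5 CPM per kb in MV4-11 and 1.91 in KG-1a.

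**Figure D1:**
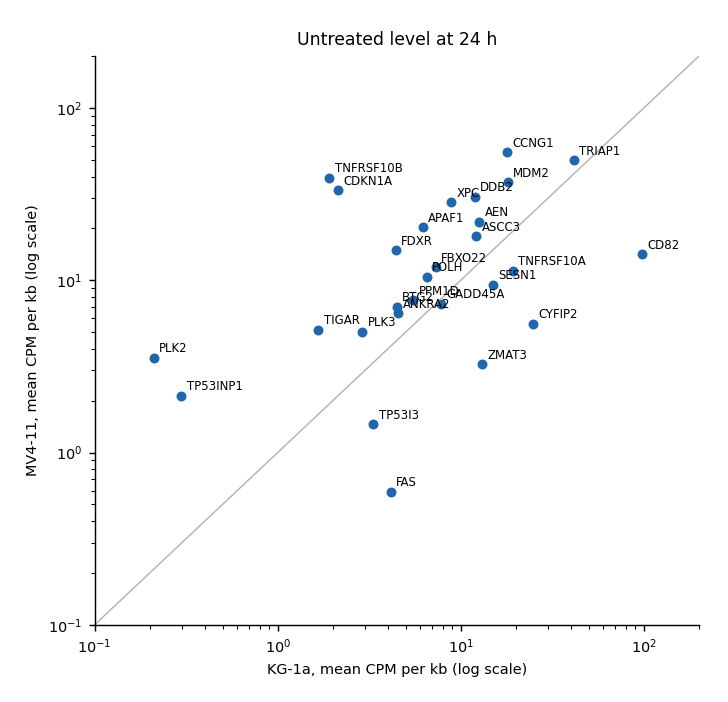
Mean level of untreated cells at 24 h in CPM per kb of exon on log axes, KG-1a on the x axis and MV4-11 on the y axis, with 1 point per gene (mean of 2 libraries) and a line of equal levels. CDKN1A and TNFRSF10B lie far above the line and FAS and CD82 below it. EDA2R, PHLDA3, SPATA18 and GDF15, which were at 0 in KG-1a at 24 h, are not drawn.

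In MV4-11, 8 h of 8CA raised 13 of the 31 tested genes and lowered 1, which is 45.2% of them, where 10.4% of all 12800 genes tested were called (4.58% higher and 5.77% lower). The median change of the 31 genes was 0.23 on the log2 scale against 0.01 over all genes. The count rested in part on single libraries, since it was 7 without untreated library A, 9 without untreated B and 7 without 8CA library B. With 8 h of 8AA, 16 of 31 were called, 9 higher and 7 lower, where 29.2% of all genes were called (13.6% higher and 15.6% lower), and the median change was 0.10. This count was 10 without untreated library B, and of the 7 lower genes 4 were called without untreated B and 3 without 8AA library A.

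No change in MV4-11 was larger than 1.13 on the log2 scale. Of the 31 tested genes, 3 were called higher in all 4 MV4-11 comparisons, namely TP53INP1, EDA2R and TP53I3. The share of all genes called in this way was not counted. TP53INP1 encodes a p53-induced nuclear protein that promotes cell death and autophagy. At 8 h its level was 11.9 and 9.75 CPM in the untreated libraries, 20.997 and 19.3 under 8CA, and 27.2 and 21.2 under 8AA. By 24 h the libraries were at 11.2 and 13.0 without drug, 26.2 and 26.2 under 8CA, and 22.7 and 20.7 under 8AA. All 8 treated libraries lay above the 4 untreated ones. The log2 fold changes were 0.89 ± 0.13 (SE) with 8CA and 1.13 ± 0.13 with 8AA at 8 h, and 1.09 ± 0.12 and 0.82 ± 0.13 at 24 h. The edgeR adjusted p lay between 4.79e-06 and 0.000754.

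TP53I3, a quinone oxidoreductase that generates reactive oxygen, started from a low level. It stood at 2.78 and 2.66 CPM in the 8 h untreated libraries, at 5.59 and 5.74 under 8CA and at 5.12 and 5.37 under 8AA. After 24 h it stood at 2.94 and 2.97 without drug, 5.24 and 3.78 under 8CA, and 4.32 and 4.65 under 8AA. The treated libraries did not overlap the untreated ones at either time, although 8CA libraries A and B stood apart at 24 h. The change was 1.05 ± 0.17 under 8CA and 0.92 ± 0.17 under 8AA at 8 h, with edgeR adjusted p of 0.00145 and 0.000856. The 24 h values were 0.60 ± 0.17 and 0.58 ± 0.17, with edgeR adjusted p of 0.00931 and 0.0181. The 24 h call with 8CA was lost without 8CA library A (0.34, edgeR adjusted p = 0.205), and that with 8AA was lost when any of its 4 libraries was left out. The Wald test of DESeq2 called neither (adjusted p of 0.0557 and 0.0916). TP53I3 overlaps FAM228B on the other strand, and strand use in the counting is not given in the sources used here.

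SPATA18 rose at 8 h. Its level was 2.37 and 2.52 CPM without drug, 4.54 and 4.07 under 8CA and 4.20 and 3.84 under 8AA, without overlap. By 24 h the libraries were at 3.43 and 3.48 without drug, 4.16 and 4.41 under 8CA, and 3.36 and 3.76 under 8AA, so that only the 8CA libraries stayed above the untreated ones. The changes at 8 h were 0.81 ± 0.16 under 8CA and 0.68 ± 0.16 under 8AA, with edgeR adjusted p of 0.00551 and 0.00525. At 24 h neither was called, at 0.29 ± 0.15 and 0.02 ± 0.15. The call with 8CA at 8 h was lost without 8CA library A (0.71, edgeR adjusted p = 0.0538), and that with 8AA under the Wald test of DESeq2 (adjusted p = 0.0545).

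FAS was raised by 8CA at 8 h. It stood at 3.61 and 3.85 CPM without drug, 5.91 and 6.41 under 8CA, and 4.92 and 4.41 under 8AA at that time. After 24 h it stood at 4.58 and 3.34 without drug, 3.87 and 4.01 under 8CA, and 3.86 and 3.46 under 8AA, and the untreated libraries enclosed both treated groups. The change with 8CA was 0.71 ± 0.16 at 8 h (edgeR adjusted p = 0.0101) and -0.03 ± 0.16 at 24 h. The 8 h call was lost without untreated library A (0.66, edgeR adjusted p = 0.0742) and without 8CA library B (0.65, edgeR adjusted p = 0.0719). FAS overlaps STAMBPL1, which had a median of 434.5 reads per library, on the same strand, so that reads may have been split between them.

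ZMAT3, an RNA-binding zinc finger protein, was called with both drugs at 24 h and with neither at 8 h. Its level at 8 h was 29.2 and 27.3 CPM without drug, 31.4 and 27.1 under 8CA, and 39.1 and 31.0 under 8AA. The 8AA libraries thus lay above the untreated ones already at 8 h, at 0.28 ± 0.12 (edgeR adjusted p = 0.0929). The 24 h values were 30.7 and 28.6 without drug, 50.3 and 42.6 under 8CA, and 48.4 and 40.9 under 8AA, with all 4 treated libraries above the untreated ones. The changes at 24 h were 0.63 ± 0.11 and 0.57 ± 0.12, with edgeR adjusted p of 0.000382 and 0.00166. CD82 went the other way. It stood at 17.0 and 17.8 CPM without drug, 16.6 and 16.5 under 8CA and 14.9 and 17.2 under 8AA at 8 h, and at 21.8 and 26.0 without drug, 15.9 and 17.2 under 8CA and 20.4 and 22.5 under 8AA at 24 h. It fell by 0.56 ± 0.10 under 8CA at 24 h (edgeR adjusted p = 0.000263). The untreated level of CD82 itself was higher at 24 h than at 8 h by 0.46 ± 0.10 (edgeR adjusted p = 0.0125), the only member called between the untreated times in MV4-11, where 5.54% of all genes were called (3.38% higher and 2.16% lower), and that call was lost without untreated 8 h library A or B or 24 h library B (edgeR adjusted p of 0.0862, 0.0543 and 0.176).

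CDKN1A and MDM2, the targets most used as a readout of p53, changed little in MV4-11. CDKN1A was at 81.2 and 80.8 CPM without drug, 95.1 and 101 under 8CA, and 69.6 and 72.7 under 8AA at 8 h. By 24 h the libraries were at 79.1 and 86.7 without drug, 80.1 and 83.7 under 8CA, and 61.8 and 66.0 under 8AA. Thus the 8CA libraries were above and the 8AA libraries below the untreated ones at 8 h, and the 8AA libraries were still below them at 24 h. The change with 8CA at 8 h was 0.26 ± 0.06 (edgeR adjusted p = 0.00821), and it was not called without untreated library B (edgeR adjusted p = 0.0548) or 8CA library B (edgeR adjusted p = 0.0781). With 8AA it fell by 0.22 ± 0.06 at 8 h (edgeR adjusted p = 0.00997, and 0.0557 without 8AA library A) and by 0.40 ± 0.06 at 24 h (edgeR adjusted p = 0.000124).

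MDM2 was at 305 and 275 CPM without drug, 368 and 314 under 8CA, and 307 and 258 under 8AA at 8 h. After 24 h it stood at 276 and 287 without drug, 332 and 311 under 8CA, and 279 and 261 under 8AA. The 8CA libraries lay above the untreated ones at both times and the 8AA libraries overlapped them. MDM2 was called in none of the 4 MV4-11 comparisons, at 0.22 ± 0.08 and 0.17 ± 0.08 under 8CA and -0.07 ± 0.08 and -0.08 ± 0.08 under 8AA, with edgeR adjusted p from 0.0994 to 0.584.

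By role, the changes at 8 h in MV4-11 were spread over all but the smallest group, where 10.4% of all genes were called with 8CA and 29.2% with 8AA. Of 4 genes of DNA repair, XPC and DDB2, which recognize bulky lesions, and POLH, a polymerase that copies past them, rose with 8CA, while the helicase ASCC3 was not called. POLH overlaps GTPBP2, with a median of 1147.5 reads per library, on the other strand. With 8AA, XPC and DDB2 rose and ASCC3 fell. Of 4 genes of metabolism and mitochondria, SPATA18 and SESN1, which restrains mTORC1 and limits oxidative stress, rose with both drugs. FDXR, the ferredoxin reductase, rose with 8AA, at 0.23, and had the same value with 8CA, which was not called. TIGAR, which redirects glucose to the pentose phosphate pathway, was called in none of the 4 comparisons.

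Of 10 genes of death receptors and apoptosis, 5 rose with 8CA at 8 h, namely FAS, EDA2R, PHLDA3, TP53I3 and CYFIP2, and none fell. Of all genes, 4.58% rose and 5.77% fell with 8CA at that time, and 13.6% rose and 15.6% fell with 8AA. With 8AA, EDA2R, TP53I3 and CYFIP2 rose, whereas the TRAIL receptors TNFRSF10A and TNFRSF10B and the nuclease AEN fell. TNFRSF10B overlaps RHOBTB2, with a median of 1023 reads per library, on the other strand. APAF1, the core of the apoptosome, was not called. Of 7 genes of cell cycle arrest, CDKN1A and the antiproliferative factor BTG2 rose and the kinase PLK3 fell with 8CA, and CDKN1A, PLK2 and PLK3 fell with 8AA. Of 5 genes that act back on p53, TP53INP1 alone was called, with each drug. GADD45A, CCNG1, MDM2, PPM1D, FBXO22, APAF1, TIGAR and ANKRA2 were the 8 tested genes called in none of the 4 comparisons. The share of all genes called in none of them was not counted.

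At 24 h in MV4-11, the share of called members was no larger than that of all genes. With 8CA 8 of 31 rose and 3 fell, which is 35.5%, where 43.9% of all genes were called (21.2% higher and 22.7% lower), and the median change was 0.09. The count was 7 without untreated library A, where 5 rose, and 7 without 8CA library A, where 1 fell. With 8AA 4 rose and 4 fell, which is 25.8%, where 29.1% of all genes were called (13.9% higher and 15.3% lower), and the median change was -0.04. This count was 5 without untreated A or B, 3 without 8AA library A and 4 without 8AA library B, with 2 higher in each of these fits. At 24 h 7 of the 8 myeloid and blast markers could be tested in MV4-11, of which 4 rose and 3 fell with 8CA and 4 rose and 0 fell with 8AA. Summed over the list they stood at 3976 to 4198 CPM in untreated cells, 3813 to 3829 under 8CA and 4005 to 4074 under 8AA. At 8 h 2 rose with 8CA and 3 with 8AA. The part of these markers in the changes of the p53 targets was not tested.

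**Figure D2:**
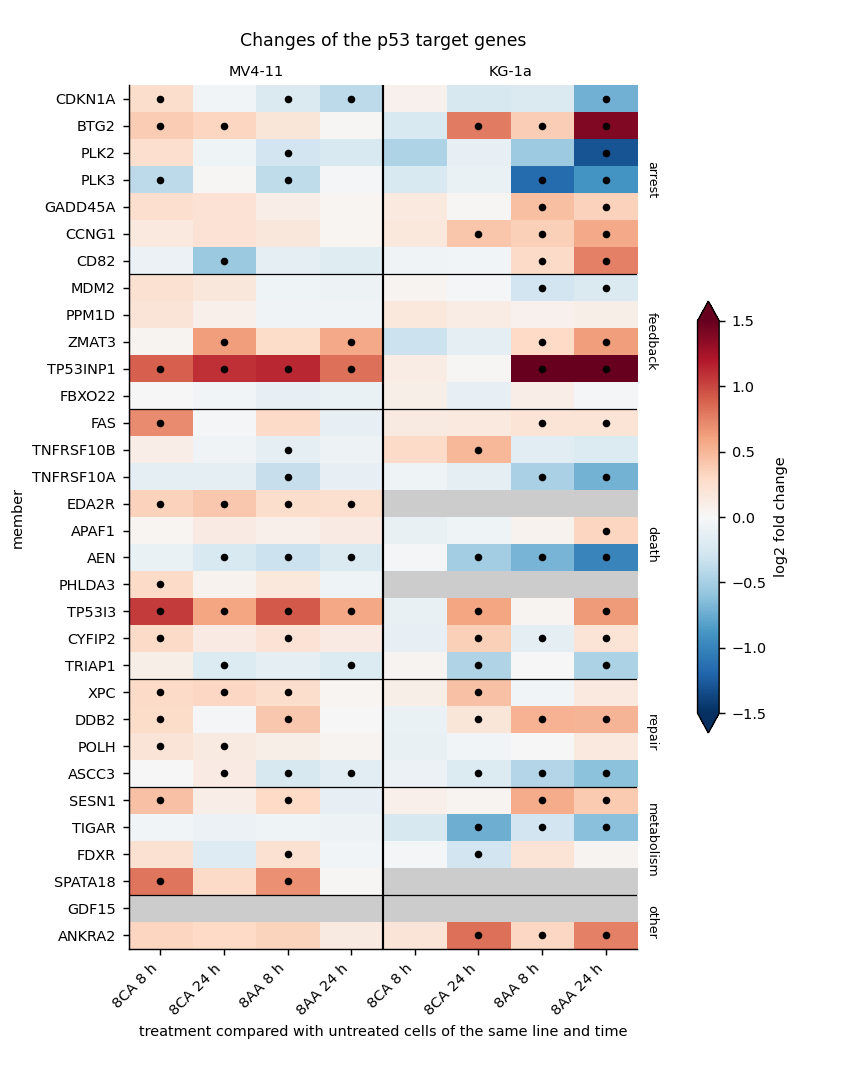
Log2 fold change of each of the 32 genes (rows, grouped by role) against untreated cells of the same line and time, for 8CA and 8AA at 8 h and 24 h in MV4-11 (left) and KG-1a (right). Dots mark calls at an edgeR adjusted p below 0.05, grey cells were not tested and the color scale ends at 1.5 in both directions. TP53INP1 is called in all 4 MV4-11 columns, and the KG-1a column for 8CA at 8 h has 0 calls.

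**Figure D3:**
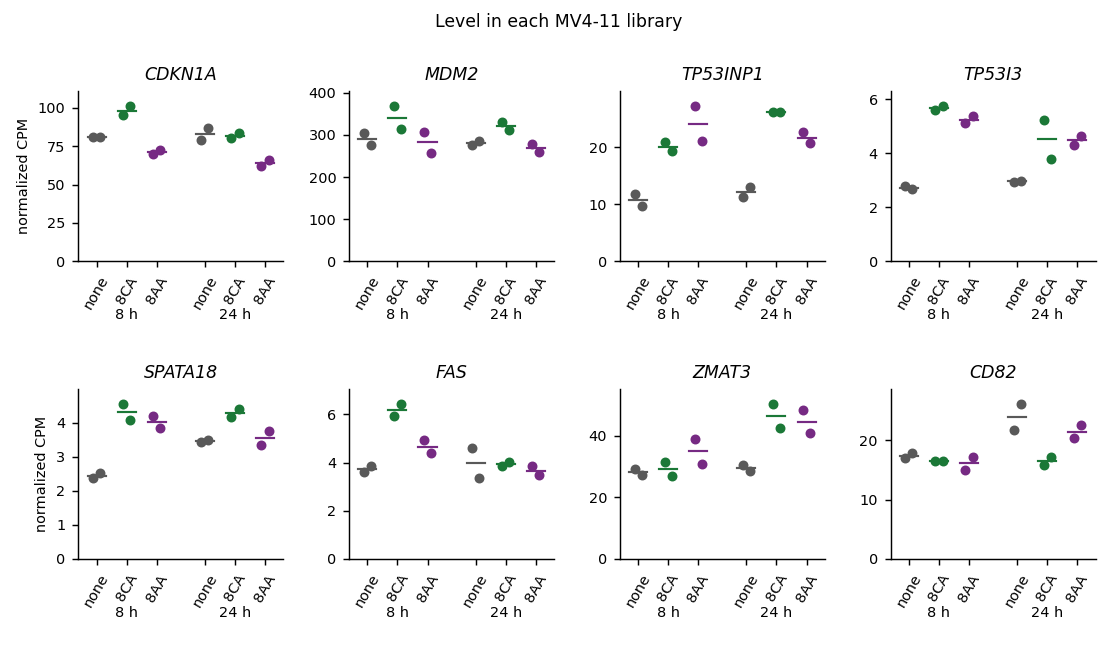
Normalized CPM in each MV4-11 library (y axis, starting at 0) for CDKN1A, MDM2 and the 6 genes with the largest called change, by treatment and time (x axis). Points are single libraries and bars the mean of 2. FAS is highest with 8CA at 8 h, and ZMAT3 is highest in the treated libraries at 24 h.

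In KG-1a the drugs parted at 8 h. With 8CA 0 of 28 tested genes were called, where 0.881% of all 12711 genes tested were called (0.7% higher and 0.181% lower) by edgeR's quasi-likelihood test. 5 of the 28 had an unadjusted p under 0.05, the Wald test of DESeq2 also called 0, and the median change was -0.03. With 8AA 10 rose and 7 fell, which is 60.7%, where 34.7% of all genes were called (16.7% higher and 18% lower), and the median change was 0.04. The 8AA count was 11 without 8AA library A, where 4 fell, and 6 rose without untreated library A. At 24 h, 8CA raised 8 and lowered 5, which is 46.4%, close to the 47.4% of all genes (23.4% higher and 24% lower), and the median change was -0.03. Of the 5 that fell, 3 were called without untreated library B or 8CA library A. With 8AA 13 rose and 9 fell, which is 78.6%, where 51.9% of all genes were called (25.4% higher and 26.6% lower), and the median change was 0.15. Without library A or B of this group, whose libraries stand apart, 20 and 23 were called.

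TP53INP1 had the largest change, and it rose with 8AA. It stood at 1.44 and 0.990 CPM without drug, 0.968 and 1.66 under 8CA, and 3.11 and 4.31 under 8AA at 8 h. The 24 h values were 1.74 and 1.62 without drug, 1.66 and 1.76 under 8CA, and 9.64 and 11.1 under 8AA. The 8AA libraries were far above the others at both times, and the 8CA libraries overlapped the untreated ones. The changes with 8AA were 1.64 ± 0.26 (edgeR adjusted p = 0.000167) at 8 h and 2.62 ± 0.20 (edgeR adjusted p = 4.76e-08) at 24 h, against 0.12 ± 0.33 and 0.02 ± 0.29 under 8CA. Without 8AA 24 h library A or B the 24 h change was 2.72 and 2.52, still called.

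BTG2 rose late with 8CA and at both times with 8AA. Its level at 8 h was 14.1 and 12.6 CPM without drug, 10.4 and 12.3 under 8CA, and 17.1 and 17.1 under 8AA. By 24 h the libraries were at 11.4 and 12.8 without drug, 20.98 and 20.3 under 8CA, and 33.4 and 29.97 under 8AA, which puts the 3 groups in an order without overlap. The changes at 24 h were 0.77 ± 0.10 and 1.39 ± 0.10, with edgeR adjusted p of 1.56e-05 and 1.44e-08. Without 8AA 24 h library A or B the latter was 1.31 and 1.47, still called. The change with 8AA at 8 h, 0.37 ± 0.10 (edgeR adjusted p = 0.0101), was not called without untreated library B (edgeR adjusted p = 0.114) or 8AA library B (edgeR adjusted p = 0.051).

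The polo-like kinases PLK2 and PLK3, which act in the stress response of the cell cycle, fell with 8AA. PLK3 was at 7.92 and 8.01 CPM without drug, 6.54 and 7.05 under 8CA and 3.80 and 3.31 under 8AA at 8 h, and at 7.11 and 6.42, 6.13 and 6.52, and 3.96 and 3.26 at 24 h. It fell by 1.15 ± 0.13 (edgeR adjusted p = 1.08e-05) and by 0.90 ± 0.14 (edgeR adjusted p = 5.56e-05) with 8AA, and its 8AA libraries were the lowest at both times. PLK2 lay near 1 CPM or below. It was at 1.12 and 0.896 CPM without drug, 0.599 and 0.856 under 8CA and 0.691 and 0.663 under 8AA at 8 h, and at 0.774 and 0.626, 0.716 and 0.571, and 0.240 and 0.331 at 24 h. It fell by 1.30 ± 0.42 under 8AA at 24 h (edgeR adjusted p = 0.0158), which was not called without untreated library A (edgeR adjusted p = 0.102) or 8AA library A (edgeR adjusted p = 0.113), nor by the Wald test of DESeq2 (adjusted p = 0.0936). Without 8AA library A or B the 24 h change was -1.06 and -0.77 for PLK3, still called, and -1.08 and -1.53 for PLK2.

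AEN, a nuclease that digests DNA in apoptosis, fell in 3 of the 4 comparisons. It was at 51.0 and 50.9 CPM without drug, 50.01 and 49.5 under 8CA and 31.3 and 31.0 under 8AA at 8 h, and at 45.8 and 47.9, 32.3 and 32.9, and 26.0 and 20.9 at 24 h. At 8 h the 8AA libraries were clearly below the rest, and at 24 h those of both drugs were. It fell by 0.70 ± 0.08 under 8AA at 8 h (edgeR adjusted p = 6.65e-06), by 0.52 ± 0.08 under 8CA at 24 h (edgeR adjusted p = 5.55e-05) and by 0.99 ± 0.08 under 8AA at 24 h (edgeR adjusted p = 7.56e-08). Without library A or B of the last group it was -1.16 and -0.85, still called. In MV4-11 the same gene, whose promoter window holds the match shown above, fell with 8AA at both times and with 8CA at 24 h.

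ANKRA2, an ankyrin repeat protein that binds class IIa histone deacetylases, rose. It stood at 9.67 and 9.94 CPM without drug, 11.6 and 10.9 under 8CA and 12.4 and 11.9 under 8AA at 8 h, and at 10.1 and 9.76, 17.4 and 17.8, and 16.8 and 16.7 at 24 h. All treated libraries lay above the untreated ones of their time. The changes at 24 h were 0.83 ± 0.08 and 0.76 ± 0.08, with edgeR adjusted p of 1.34e-06 and 2.23e-06. With 8AA at 8 h it was 0.31 ± 0.09 (edgeR adjusted p = 0.0115), which was not called without untreated library A (edgeR adjusted p = 0.0568) or 8AA library A (edgeR adjusted p = 0.0769), nor in the fit of all 24 libraries (edgeR adjusted p = 0.0732) or by the Wald test of DESeq2 (adjusted p = 0.0978). Without 8AA 24 h library A or B its 24 h change was 0.75 and 0.76.

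With 8AA in KG-1a, MDM2 fell at both times and CDKN1A at 24 h, and neither was called with 8CA. CDKN1A was at 5.63 and 5.47 CPM without drug, 5.30 and 6.29 under 8CA and 4.84 and 4.64 under 8AA at 8 h, and at 5.76 and 4.80, 4.97 and 3.95, and 3.36 and 3.03 at 24 h. The 24 h libraries with 8AA were the lowest, and there it fell by 0.72 ± 0.16 (edgeR adjusted p = 0.00158). MDM2 was at 147 and 163 CPM without drug, 157 and 161 under 8CA and 122 and 130.4 under 8AA at 8 h, and at 143 and 132, 134 and 136, and 108 and 129.6 at 24 h. It fell by 0.29 ± 0.07 at 8 h (edgeR adjusted p = 0.00672) and by 0.21 ± 0.07 at 24 h (edgeR adjusted p = 0.0259). The 8 h call was lost without untreated library B (edgeR adjusted p = 0.0969) or 8AA library A (edgeR adjusted p = 0.0811), and the 24 h call without untreated library A (edgeR adjusted p = 0.165) or 8AA library A (edgeR adjusted p = 0.216). Without 8AA 24 h library A or B the change at 24 h was -0.09 and -0.35 for MDM2 and -0.81 and -0.65 for CDKN1A, which stayed called.

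By role in KG-1a at 24 h with 8AA, where 51.9% of all genes were called, all 7 genes of cell cycle arrest were called, with BTG2, GADD45A, CCNG1 and CD82 higher and CDKN1A, PLK2 and PLK3 lower. Of the 8 tested genes of death receptors and apoptosis, FAS, APAF1, TP53I3 and CYFIP2 rose and TNFRSF10A, AEN and TRIAP1 fell. Among the 5 genes that act back on p53, TP53INP1 and ZMAT3 rose and MDM2 fell, while the phosphatase PPM1D and the F-box protein FBXO22 were called in no comparison. DDB2 rose and ASCC3 fell among the repair genes, and SESN1 rose and TIGAR fell among those of metabolism. With 8CA at 24 h the genes that rose were BTG2, CCNG1, TNFRSF10B, TP53I3, CYFIP2, XPC, DDB2 and ANKRA2, and those that fell were AEN, TRIAP1, ASCC3, TIGAR and FDXR. TP53INP1, CDKN1A and MDM2 were not among them. In the 8AA libraries of KG-1a at 24 h the 7 markers of other cell types summed to 67.5 to 79.1 CPM against 36.6 to 37.2 CPM in untreated cells, nearly all of it CD3E, with MS4A1, EPCAM, HBB, ALB and COL1A1 at 0, and 1 of the 2 tested markers rose. The 8 myeloid and blast markers summed to 1365 to 1368 CPM against 1169 to 1173 CPM, and 4 of 8 rose, or 3 without either library of the group. At 8 h 2 of them rose with 8AA, and at 24 h 1 fell with 8CA. The part of these markers in the changes of the p53 targets was not tested.

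**Figure D4:**
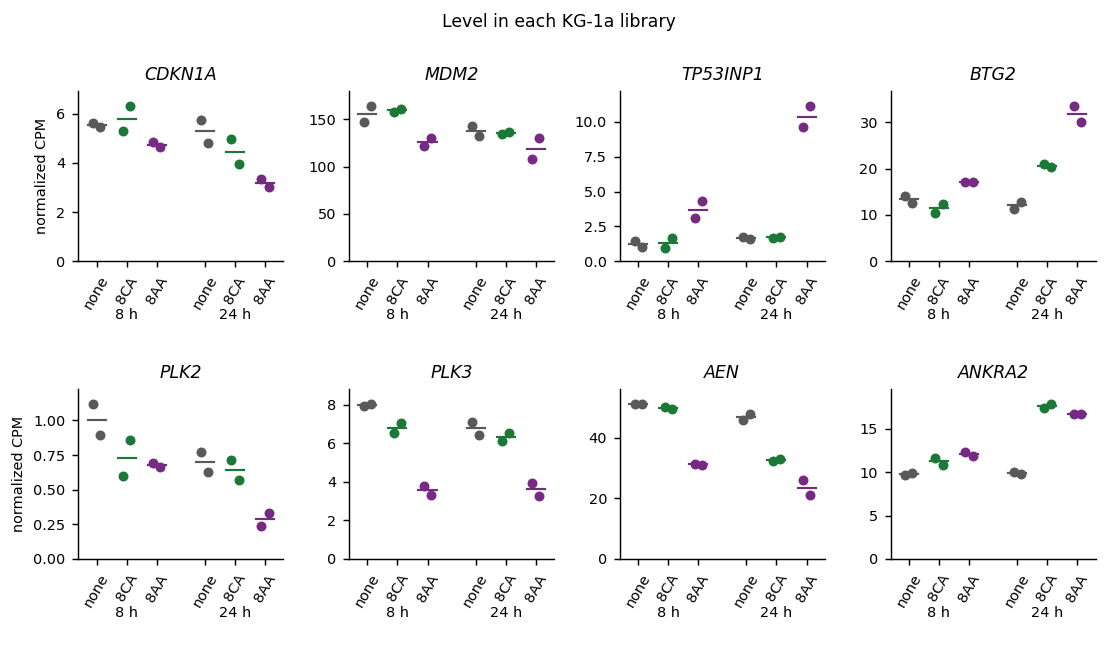
Normalized CPM in each KG-1a library (y axis, starting at 0) for CDKN1A, MDM2 and the 6 genes with the largest called change, by treatment and time (x axis). Points are single libraries and bars the mean of 2. TP53INP1 and BTG2 are highest, and PLK2 and AEN lowest, with 8AA at 24 h, and PLK3 is lowest with 8AA at both times.

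The next question was whether the change at 24 h differed from that at 8 h. In MV4-11 the change with 8CA was smaller or more negative at 24 h for 7 genes and larger for 1, which is 25.8% of 31, where 16.3% of all genes were called (6.48% higher and 9.83% lower). FAS differed most, at -0.74 ± 0.23 (edgeR adjusted p = 0.0377), followed by ZMAT3 at 0.59 ± 0.17 (edgeR adjusted p = 0.0258) and CD82 at -0.47 ± 0.14 (edgeR adjusted p = 0.0322). The other 5 were CDKN1A, TRIAP1, DDB2, SESN1 and FDXR, all lower. The count is fragile, since it was 3 without untreated 8 h library A, 4 without untreated 8 h B, 3 without 8CA 8 h A, 3 without 8CA 8 h B, 5 without untreated 24 h A, 2 without untreated 24 h B and 1 without 8CA 24 h A. The calls of FAS and CD82 were lost in 7 and 6 of the 8 fits without 1 library, and that of ZMAT3 in 5, and the Wald test of DESeq2 called neither FAS (adjusted p = 0.167) nor CD82 (adjusted p = 0.0827). With 8AA 2 of 31 differed, where 4.63% of all genes were called (2.51% higher and 2.12% lower). These were SESN1, at -0.43 ± 0.09 (edgeR adjusted p = 0.0183), and DDB2, at -0.40 ± 0.07 (edgeR adjusted p = 0.00583). SESN1 was not called without untreated 8 h B, untreated 24 h B or 8AA 24 h A, where the count was 1 each.

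DDB2 shows the pattern in the libraries. In MV4-11 it stood at 87.8 and 94.0 CPM without drug, 113 and 108 under 8CA, and 120.1 and 125 under 8AA at 8 h. After 24 h it stood at 88.5 and 89.3 without drug, 90.4 and 87.9 under 8CA, and 90.9 and 89.3 under 8AA. All 4 treated libraries were above the untreated ones at 8 h and the groups met at 24 h. SESN1 stood at 36.7 and 34.7 CPM without drug, 50.6 and 47.0 under 8CA and 45.8 and 43.8 under 8AA at 8 h, and at 33.3 and 35.0, 36.5 and 37.5, and 31.5 and 31.9 at 24 h. Its treated libraries were also above the untreated ones at 8 h. At 24 h its 8CA libraries lay above the untreated ones and its 8AA libraries below them.

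In KG-1a most of the called differences between the times were upward. With 8CA, 6 genes were higher and 3 lower at 24 h than at 8 h relative to untreated, which is 32.1% of 28, where 23.9% of all genes were called (11.2% higher and 12.7% lower). BTG2 differed by 1.01 ± 0.15 (edgeR adjusted p = 0.000196), TP53I3 by 0.70 ± 0.19 (edgeR adjusted p = 0.0163) and ANKRA2 by 0.63 ± 0.12 (edgeR adjusted p = 0.00185). TP53I3 in KG-1a stood at 6.32 and 6.13 CPM without drug and 5.72 and 5.84 under 8CA at 8 h, and at 6.97 and 6.52 without drug and 10.7 and 9.61 under 8CA at 24 h. Its call was lost without untreated 8 h A, 8CA 8 h A, untreated 24 h B or 8CA 24 h A, with edgeR adjusted p from 0.0575 to 0.0654.

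With 8AA in KG-1a 6 were higher and 1 lower at 24 h, 7 of 28, where 18.3% of all genes were called (7.64% higher and 10.7% lower). BTG2 differed by 1.03 ± 0.14 (edgeR adjusted p = 0.000206), TP53I3 by 0.59 ± 0.19 (edgeR adjusted p = 0.039) and TRIAP1 by -0.49 ± 0.10 (edgeR adjusted p = 0.00267). The call of TP53I3 was lost in 7 of the 8 fits without 1 library, with edgeR adjusted p from 0.0827 to 0.124, and held without 8AA 24 h B. It was also lost under the Wald test of DESeq2 (adjusted p = 0.12). Without library A of the 24 h 8AA group 12 genes were called, 3 of them lower, without its library B 7, 2 of them lower, and without any of the 4 untreated libraries 4. CYFIP2, a partner of the RNA-binding protein FMRP, was lower than untreated at 8 h and higher at 24 h with 8AA, at -0.13 and 0.21 (0.17 and 0.23 without 8AA 24 h library A or B), all called. It was the only one of the 28 with calls in opposite directions at the 2 times. The share of all genes with such calls was not counted. Between the untreated times in KG-1a, SESN1 rose by 0.24 ± 0.06 (edgeR adjusted p = 0.0325) and CD82 by 0.23 ± 0.06 (edgeR adjusted p = 0.0475), 2 of 28 where 4.45% of all genes were called (2.49% higher and 1.97% lower), and both calls were lost without any 1 of the 4 libraries (CD82 0.0884 to 0.319, SESN1 0.128 to 0.239, edgeR adjusted p), that of CD82 also with the size factors of DESeq2 (0.0584) or all 24 libraries (0.0605), and that of SESN1 under the Wald test of DESeq2 (0.0826).

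**Figure D5:**
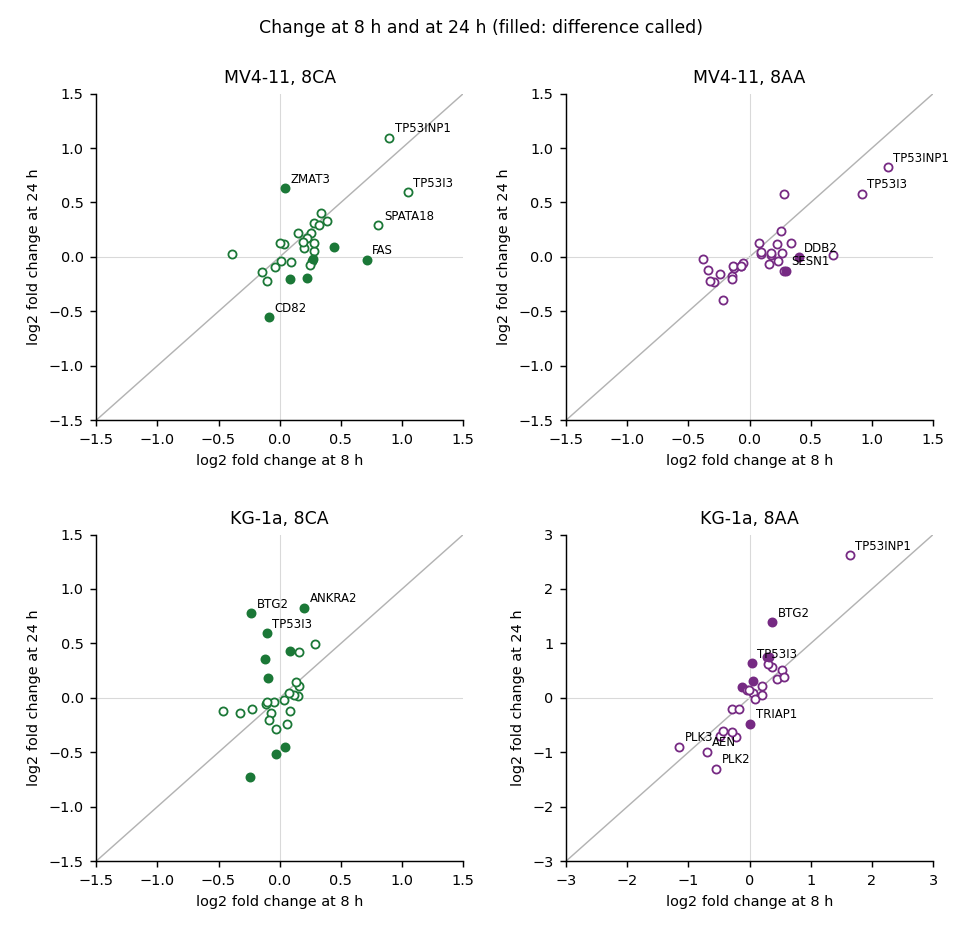
Log2 fold change at 8 h (x axis) and at 24 h (y axis) for each tested gene, by line and drug, with a line of equal change. Filled points are genes whose change differed between the times at an edgeR adjusted p below 0.05, and the panel for KG-1a with 8AA has a wider range. With 8CA, FAS and CD82 lie below the line in MV4-11, and BTG2, TP53I3 and ANKRA2 above it in KG-1a.

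The lines were then compared in the response itself, in the fit of all 24 libraries, over the 28 genes tested in both lines. The shares of all genes given beside them also cover genes that passed the filter through 1 line alone. EDA2R, PHLDA3 and SPATA18 were called in none of these 4 contrasts. Because KG-1a was at or near 0 for them, no change could be estimated there. Their lack of a call therefore does not mean that the lines responded alike. With 8CA at 8 h the change was higher in MV4-11 for 5 genes and lower for 0, which is 17.9%, where 1.15% of all genes were called (0.427% higher and 0.726% lower). These were TP53I3 at 1.16 ± 0.22 (edgeR adjusted p = 0.00638), BTG2 at 0.63 ± 0.15 (edgeR adjusted p = 0.0364), CYFIP2 at 0.42 ± 0.08 (edgeR adjusted p = 0.00948), DDB2 at 0.38 and SESN1 at 0.38. The median difference was 0.20 against 0.01 over all genes. The count was 2 without MV4-11 untreated A, KG-1a untreated A or KG-1a 8CA library B, and 3 without MV4-11 untreated B, MV4-11 8CA library B or KG-1a untreated B. The call of BTG2 was lost in 6 of 8 such fits and that of CYFIP2 in 4.

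With 8AA at 8 h, 5 were higher and 1 lower in MV4-11, which is 21.4%, where 11.1% of all genes were called (7.49% higher and 3.6% lower). TP53I3 differed by 0.92 ± 0.22 (edgeR adjusted p = 0.008), PLK3 by 0.81 ± 0.16 (edgeR adjusted p = 0.00181) and AEN by 0.41 ± 0.11 (edgeR adjusted p = 0.0124). The call of AEN was lost without MV4-11 untreated A, MV4-11 8AA B or KG-1a 8AA B, with edgeR adjusted p from 0.0546 to 0.0801, and no gene was called lower in 6 of the 8 fits without 1 library. TP53INP1, DDB2 and SESN1 rose, and PLK3, TNFRSF10A, AEN and ASCC3 fell, in both lines. CYFIP2 rose in MV4-11 and fell in KG-1a.

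With 8CA at 24 h, 4 were higher and 3 lower in MV4-11, which is 25% of 28, where 11.2% of all genes were called (5.76% higher and 5.44% lower). TP53INP1 differed by 1.09 ± 0.33 (edgeR adjusted p = 0.035), ZMAT3 by 0.79 ± 0.18 (edgeR adjusted p = 0.00394) and TIGAR by 0.66 ± 0.12 (edgeR adjusted p = 0.000466). The call of TP53INP1 was lost in 7 of 8 fits without 1 library, with edgeR adjusted p from 0.0565 to 0.169, and 1 in place of 3 was called lower without MV4-11 untreated library B. BTG2, TP53I3 and XPC rose and AEN and TRIAP1 fell in both lines, whereas ASCC3 rose in MV4-11 and fell in KG-1a.

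With 8AA at 24 h, 6 were higher and 7 lower in MV4-11, which is 46.4%, where 22.3% of all genes were called (13.8% higher and 8.51% lower). Here the largest differences went to KG-1a. TP53INP1 differed by -1.77 ± 0.26 (edgeR adjusted p = 1.88e-05), BTG2 by -1.35 ± 0.14 (edgeR adjusted p = 2.8e-07) and CD82 by -0.91 ± 0.11 (edgeR adjusted p = 2.1e-06). Of the other 10, CCNG1, DDB2, SESN1 and ANKRA2 were lower and PLK3, TNFRSF10A, AEN, TRIAP1, ASCC3 and TIGAR higher in MV4-11. Without library A or B of the KG-1a 8AA group, 13 and 14 were called. Thus TP53INP1, the gene with the largest response in each line, had at 24 h a larger change in MV4-11 with 8CA and a larger one in KG-1a with 8AA, the former on a call that most fits without 1 library lost.

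8AA and 8CA differ by an amino group or a chlorine atom at the same place on the base, and they were compared at the same dose and time in 4 contrasts of 28 or 31 genes, with adjustment over all genes tested. In MV4-11 at 8 h, 6 genes were lower with 8AA and 0 higher, where 6.66% of all genes were called (2.96% higher and 3.7% lower). PLK2 differed by -0.54 (95% interval -0.75 to -0.33, edgeR adjusted p = 0.00412), CDKN1A by -0.48 (-0.60 to -0.36, edgeR adjusted p = 0.000137) and MDM2 by -0.29 (-0.47 to -0.12, edgeR adjusted p = 0.0471). The call of MDM2 was lost without 8CA library A (edgeR adjusted p = 0.38) or 8AA library B (edgeR adjusted p = 0.352), and that of PLK2 without 8AA library A (edgeR adjusted p = 0.0502). MDM2 was also not called with library size only (edgeR adjusted p = 0.0831), upper-quartile scaling (0.0733), the stricter filter (0.0577), all 24 libraries (0.0525) or the 6 libraries of that time (0.167), nor by the Wald test of DESeq2 (adjusted p = 0.151). The count was 2 without 8CA library A. PLK2 stood at 12.3 and 13.6 CPM without drug, 15.5 and 15.7 under 8CA, and 9.83 and 11.8 under 8AA, with the drugs on either side of untreated. The intervals of 24 of the 25 genes not called lay within a change of 1.5-fold, and that of FAS reached -0.74.

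In MV4-11 at 24 h, 6 were lower and 1 higher with 8AA, where 21.2% of all genes were called (11.7% higher and 9.48% lower). CD82 differed by 0.38 (0.17 to 0.59, edgeR adjusted p = 0.0126), CDKN1A by -0.36 (-0.48 to -0.24, edgeR adjusted p = 0.000441) and BTG2 by -0.31 (-0.50 to -0.11, edgeR adjusted p = 0.0283). The count was 3 without 8CA library A and 4 without 8CA B, 8AA A or 8AA B. CD82 lost its call without 8CA A or 8AA B (edgeR adjusted p of 0.127 and 0.122), and BTG2 without 8CA A, 8CA B or 8AA A (edgeR adjusted p from 0.0674 to 0.227) and under the Wald test of DESeq2 (adjusted p = 0.0691). The intervals of all 24 genes not called lay within 1.5-fold. CDKN1A was thus lower with 8AA than with 8CA at both times in MV4-11.

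In KG-1a at 8 h, 7 were higher and 6 lower with 8AA, where 30.4% of all genes were called (14.7% higher and 15.8% lower). TP53INP1 differed by 1.52 (0.99 to 2.05, edgeR adjusted p = 0.000334), PLK3 by -0.92 (-1.21 to -0.63, edgeR adjusted p = 0.000127) and AEN by -0.67 (-0.83 to -0.50, edgeR adjusted p = 1.38e-05). Of the 15 genes not called, 13 had intervals within 1.5-fold, and that of PLK2 ran from -0.80 to 0.63. At 24 h, 10 were higher and 10 lower with 8AA, where 42% of all genes were called (20.3% higher and 21.7% lower). TP53INP1 differed by 2.59 (2.18 to 3.01, edgeR adjusted p = 5.96e-08), PLK2 by -1.18 (-2.07 to -0.29, edgeR adjusted p = 0.0325) and PLK3 by -0.80 (-1.09 to -0.51, edgeR adjusted p = 0.000256). The count was 13 without 8CA library A, where 6 were lower, 18 without 8AA A and 18 without 8AA B. The call of PLK2 was lost without any 1 of the 4 libraries, with edgeR adjusted p from 0.0534 to 0.186, and under the Wald test of DESeq2 (adjusted p = 0.157), without the filter (edgeR adjusted p = 0.0606) and in the fit of 6 libraries (edgeR adjusted p = 0.0515). All 8 genes not called had intervals within 1.5-fold.

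Among the regulators of p53, MDM4 and HIPK2 were called at 24 h in both lines. MDM4, which binds and restrains p53, rose at 24 h by 0.29 ± 0.07 in MV4-11 under 8CA (edgeR adjusted p = 0.0021), and in KG-1a by 0.88 ± 0.07 under 8CA (edgeR adjusted p = 1.2e-07) and 0.63 ± 0.07 under 8AA (edgeR adjusted p = 2.42e-06). HIPK2, a kinase that phosphorylates p53, rose by 0.84 ± 0.14 in MV4-11 under 8CA (edgeR adjusted p = 0.000153) and fell by 0.22 ± 0.05 in KG-1a with 8AA (edgeR adjusted p = 0.0024). The p53 relative TP63 was singled out after its values had been seen. In KG-1a it stood at 0.319 and 0.236 CPM without drug and 0.864 and 1.04 under 8AA at 8 h, and at 0.484 and 0.470 without drug, 0.671 and 0.666 under 8CA and 2.40 and 2.51 under 8AA at 24 h. TP63 rose with 8AA by 1.78 ± 0.41 at 8 h (edgeR adjusted p = 0.00325) and 2.35 ± 0.29 at 24 h (edgeR adjusted p = 7.71e-06). In fits chosen after the data had been seen, without 8AA 24 h library A or B, the 24 h changes in KG-1a were 0.72 and 0.54 for MDM4, -0.16 and -0.28 for HIPK2 and 2.38 and 2.32 for TP63, all called.

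Of 25 tested further targets of p53 that are not on the list of 32, MV4-11 had 5 higher and 1 lower with 8CA and 5 higher and 3 lower with 8AA at 8 h, and 5 higher and 8 lower with 8CA and 3 higher and 4 lower with 8AA at 24 h. KG-1a had 2 higher and 0 lower with 8CA and 3 higher and 3 lower with 8AA at 8 h, and 4 higher and 9 lower with 8CA and 4 higher and 7 lower with 8AA at 24 h. Over all genes, in the same order, 4.58% were higher and 5.77% lower, 13.6% and 15.6%, 21.2% and 22.7%, and 13.9% and 15.3% in MV4-11, and 0.7% and 0.181%, 16.7% and 18%, 23.4% and 24%, and 25.4% and 26.6% in KG-1a. Without library A or B of the KG-1a 24 h 8AA group, 4 were higher in both fits and 7 and 6 lower. SESN2, a paralog of SESN1 that is also a target of the stress factor ATF4, stood in KG-1a at 8.47 and 9.55 CPM without drug, 60.2 and 60.8 under 8CA, and 7.12 and 6.004 under 8AA at 24 h. Its change there was 2.75 ± 0.08 under 8CA (edgeR adjusted p = 1.61e-12) and -0.45 ± 0.11 under 8AA (edgeR adjusted p = 0.00269), and in MV4-11 it was 0.66 ± 0.12 under 8CA (edgeR adjusted p = 0.000277). SESN1 in KG-1a stood at 53.1 and 54.9 CPM without drug, 54.6 and 56.7 under 8CA, and 69.5 and 71.8 under 8AA at that time, so that the 2 sestrins were high with different drugs. BBC3, which encodes the death protein PUMA, rose at 24 h in KG-1a by 2.06 ± 0.30 under 8CA (edgeR adjusted p = 4.48e-05) and 0.95 ± 0.35 under 8AA (edgeR adjusted p = 0.0326), from 0.581 and 0.626 CPM, and in MV4-11 by 0.26 ± 0.09 under 8CA (edgeR adjusted p = 0.0264). Without 8AA library A the call of BBC3 with 8AA in KG-1a was lost (0.57, edgeR adjusted p = 0.307), and without B it was 1.21, while SESN2 was at -0.58 and -0.34 and stayed called.

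Of 14 cell cycle genes that p53 lowers through p21, all 14 fell in MV4-11 at 24 h with each drug, where 22.7% and 15.3% of all genes fell, with medians of -0.53 under 8CA and -0.44 under 8AA. At 8 h, 1 fell and 0 rose with 8CA, and 5 fell and 1 rose with 8AA. In the same order, 5.77% and 15.6% of all genes fell at 8 h. In the same MV4-11 libraries at 24 h, CDKN1A, the gene for p21, was at -0.04 under 8CA and fell by 0.40 under 8AA. In KG-1a 0 were called with 8CA at 8 h (3 at an unadjusted p under 0.05), 5 fell and 1 rose with 8AA at 8 h, 10 fell and 0 rose with 8CA at 24 h, and 6 fell and 3 rose with 8AA at 24 h. The shares of all genes that fell there were 0.181%, 18%, 24% and 26.6%. Without library B of the last group 4 fell and 5 rose, and without A 6 and 3. MAD2L1, a spindle checkpoint gene, fell in all 4 comparisons at 24 h, by 0.72 ± 0.11 and 0.50 ± 0.11 in MV4-11 and by 0.36 ± 0.08 and 0.37 ± 0.08 in KG-1a, with edgeR adjusted p from 8.64e-05 to 0.00293. CDC25C, a phosphatase that starts mitosis, fell by 0.30 ± 0.10 and 0.32 ± 0.11 in MV4-11 (edgeR adjusted p of 0.03 and 0.0348) and rose by 0.71 ± 0.11 in KG-1a with 8AA (edgeR adjusted p = 8.3e-05). Without 8AA library A or B the KG-1a change was -0.30 and -0.44 for MAD2L1 and 0.58 and 0.82 for CDC25C, all called.

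Most of the 10 genes of the ATF4 and CHOP stress response, which shares some targets with p53, went in opposite directions with the 2 drugs at 24 h. In MV4-11 8 rose and 0 fell with 8CA and 0 rose and 7 fell with 8AA, and in KG-1a all 10 rose with 8CA, while 2 rose and 8 fell with 8AA, also without either library of that group. Of all genes 21.2% rose with 8CA and 15.3% fell with 8AA in MV4-11, and 23.4% and 26.6% in KG-1a. At 8 h, 1 rose and 1 fell in MV4-11 under 8CA, while 1 rose and 6 fell under 8AA. KG-1a had 7 that rose under 8CA and 6 that fell under 8AA. Among all genes of MV4-11, 8CA raised 4.58% and lowered 5.77% by 8 h, while 8AA raised 13.6% and lowered 15.6%. For KG-1a, 8CA raised 0.7% of all genes by then and 8AA lowered 18%. CHAC1, which degrades glutathione, stood in KG-1a at 3.48 and 3.496 CPM without drug, 54.5 and 51.1 under 8CA and 0.440 and 0.567 under 8AA at 24 h. Its changes were 3.92 ± 0.09 and -2.79 ± 0.21 there (edgeR adjusted p of 1.48e-13 and 4.8e-08), and 1.57 ± 0.16 and -0.77 ± 0.22 in MV4-11 (edgeR adjusted p of 1.96e-06 and 0.0144). DDIT4, which restrains mTORC1, changed by 2.69 ± 0.07 and -0.30 ± 0.08 in KG-1a (edgeR adjusted p of 4.82e-13 and 0.0055), and fell by 0.70 ± 0.14 in MV4-11 under 8AA (edgeR adjusted p = 0.00128). Without 8AA library A or B the KG-1a change was -2.61 and -2.97 for CHAC1 and -0.45 and -0.19 for DDIT4, all called. The median of the 28 tested p53 targets in KG-1a at 24 h was -0.03 under 8CA and 0.15 under 8AA, against 2.24 and -0.73 for these 10 genes.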

How the data were processed

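The table that the authors deposited gives unnormalized counts of reads per gene for 24 libraries, beside symbols, positions and exon lengths. The submitters' processing notes name Trimmomatic, STAR 2.6.0, HTSeq 0.11.1 and edgeR, and the builds hg19 and hg38. What each did, and whether strand was used, the sources used here do not state. The positions are not GRCh38, since 0 of the 32 genes start within 1 kb of their GENCODE start; table positions are therefore not printed.

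Genes were kept by filterByExpr (minimum count 10), scaled by TMM and tested by edgeR 4.0.16 (quasi-likelihood) under R 4.3.3, with 1 coefficient per group, on 12800 genes in MV4-11 and 12711 in KG-1a (12 libraries each) and 14055 for comparisons of the lines (24 libraries). The standard error is the log2 fold change divided by the root of F. The steps were tested on simulated data. Intervals and floors on counts cover counting error only.

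The members and all gene lists were chosen with earlier results of these data known. Values in every library are given for CDKN1A, MDM2 and, per line, the 6 members with the largest called change. The 3 largest called members are named for each contrast of times, lines or drugs, and from each other list the 2 genes with the largest change among those called at 24 h in both lines. 1 gene that the rule also names, and the counts of the list that holds it, are not reported here. Other members are named as parts of their role group, and library values beyond the rule were added after they had been seen. Alternatives changed the scaling (DESeq2 size factors, upper quartile, or none beyond depth), the filter (none, or 10 counts required throughout), the libraries fitted together, the test (DESeq2 1.42.0, Wald) and the block (replicate letter), and dropped each library in turn. The count over members tested in both lines, and the fits of other lists without a KG-1a 24 h 8AA library, were added after the data had been seen.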

Additional observations from a re-analysis of the deposited data

Results flagged for a closer look

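The values below are differences between changes on the log2 scale from edgeR's quasi-likelihood test, and each is listed because the difference itself passed the threshold. Between 24 h and 8 h, the 8CA change in MV4-11 differed by -0.74 for FAS, 0.59 for ZMAT3 and -0.47 for CD82, and the 8AA change by -0.43 for SESN1 and -0.40 for DDB2. In KG-1a the 8CA change differed by 1.01 for BTG2, 0.70 for TP53I3 and 0.63 for ANKRA2, and the 8AA change by 1.03 for BTG2, 0.59 for TP53I3 and -0.49 for TRIAP1.

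Between the lines, MV4-11 minus KG-1a, the 8CA change at 8 h differed by 1.16 for TP53I3, 0.63 for BTG2 and 0.42 for CYFIP2, and the 8AA change at 8 h by 0.92 for TP53I3, 0.81 for PLK3 and 0.41 for AEN. At 24 h the 8CA change differed by 1.09 for TP53INP1, 0.79 for ZMAT3 and 0.66 for TIGAR, and the 8AA change by -1.77 for TP53INP1, -1.35 for BTG2 and -0.91 for CD82. These were the 3 largest called differences of each contrast, or all where fewer were called. Groups of 2 libraries are too small to look for single outlying libraries.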

How the results depend on the processing

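No call of a member named by the rule changed direction under any alternative that tested it. The named untreated differences between the lines were not followed in these fits. Genes of the other lists were fitted again only without a KG-1a 24 h 8AA library. With 2 libraries per group, counts near the threshold moved most, and the cause was not tested. Among the counts of members called, the Wald test of DESeq2 gave 5 in place of 8 for MV4-11 8AA at 24 h, 4 in place of 8 for the MV4-11 8CA time difference, 4 in place of 7 for MV4-11 8AA minus 8CA at 24 h, 4 in place of 7 for the KG-1a 8AA time difference and 1 in place of 2 between the KG-1a untreated times, where the size factors of DESeq2 also gave 1. Without the filter 3 in place of 1 were called between the MV4-11 untreated times and 1 in place of 0 for KG-1a 8CA at 8 h. A fit of the 6 libraries of 1 time point gave 3 in place of 6 for MV4-11 8AA minus 8CA at 8 h and 1 in place of 0 for KG-1a 8CA at 8 h. The MDM2 call in KG-1a with 8AA at 24 h was lost with library size only (-0.12), upper-quartile scaling (-0.14), all 24 libraries (-0.21, edgeR adjusted p = 0.0508) and 6 libraries (-0.21, edgeR adjusted p = 0.0516).

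Leaving out 1 library gave, in MV4-11, 7 to 11 called members for 8CA and 10 to 15 for 8AA at 8 h, 7 to 9 for 8CA and 3 to 5 for 8AA at 24 h, 1 to 7 for the 8CA and 1 to 3 for the 8AA time difference, 2 to 5 and 3 to 4 for 8AA minus 8CA at 8 h and 24 h, and 0 to 1 between untreated times. In KG-1a it gave 11 to 14 for 8AA at 8 h, 4 to 12 for the 8AA time difference, 13 to 18 for 8AA minus 8CA at 24 h and 0 in all fits between untreated times. The line difference with 8CA at 8 h ranged from 2 to 5.

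Deviations of same-lettered libraries correlated at -0.117 to 0.159 in MV4-11, with 6 of 15 pairs over 0.1, and at -0.085 to 0.161 in KG-1a, with 2 of 15, so the letters were not taken to pair the libraries. With the replicate block, 4 in place of 1 were called between the MV4-11 untreated times, and the other total counts of members stayed within 1.5 times. By direction, 2 in place of 1 were higher in the MV4-11 8CA time difference and 1 in place of 0 in MV4-11 8AA minus 8CA at 8 h.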
